A study of Mus musculus with 15 samples.

Results

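The 9 genes described here encode liver enzymes that make, use and recycle methyl groups: Inmt, Nnmt, Gnmt, Pemt, Mat1a, Ahcy, Bhmt, Cbs and Cth. They were chosen by name, with the lower level of Inmt in the Old than in the Adult livers of this series already known, so the values between Old and Adult are given below as a description and not as a test. All 9 symbols matched an Ensembl gene ID of the count table, and all 9 passed the filter on low counts, among 15808 genes tested of 55450 gene IDs in all. RNA was sequenced from the liver of 15 female C57BL/6 mice, with 1 library per mouse. At the start of the study the Adult group (A1 to A5) was 6 months of age and the Old group (O1 to O5) 22 months, and both were gavaged with corn oil. The PDX group (P1 to P5) was also 22 months of age and was gavaged daily with protectin DX, a lipid mediator derived from docosahexaenoic acid, at 30 ng per g of body weight in corn oil. The sample labels give 9 weeks of gavage. All ages are those at the start, and livers were taken at the end of the study, when the mice were older. No young mouse received PDX, so PDX against Adult differs in age as well as in treatment. The libraries held between 22424383 and 36070835 counted read pairs.

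The liver uses methionine as the source of most methyl groups. Methionine is turned into S-adenosylmethionine by the product of Mat1a, methyltransferases such as Gnmt, Pemt, Nnmt and Inmt pass the methyl group on and release S-adenosylhomocysteine, and Ahcy splits that product into adenosine and homocysteine. Homocysteine is then remethylated to methionine, in liver partly by Bhmt with betaine as the donor, or is drained towards cysteine by Cbs and Cth in transsulfuration. Gnmt, which methylates glycine, is known as the buffer of S-adenosylmethionine in hepatocytes.

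The genes lie on 8 chromosomes of the mouse build GRCm38 (mm10). Inmt lies at chr6:55170626-55175043, Nnmt at chr9:48591877-48605153, Gnmt at chr17:46725664-46729168, Pemt at chr11:59970614-60046489, Ahcy at chr2:155059310-155074497, Bhmt at chr13:93616675-93637961, Cbs at chr17:31608894-31637238 and Cth at chr3:157894248-157925077, all on the minus strand, and Mat1a at chr14:41105035-41124412 on the plus strand. All 9 are annotated as protein-coding, and counts were made over their exons. Counting used strand, so the antisense genes that overlap Ahcy and Bhmt (at most 66 and 5 counts in a mouse) can be told apart from them. Cth overlaps Gm43314 on the same strand (at most 637 counts), so reads in the shared stretch are uncertain. Bhmt has a close paralog, Bhmt2, and read pairs that fit both equally were not counted.

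The promoters of 3 genes are shown because the PDX and Adult mice did not overlap for these genes. They run from 250 bases before to 50 bases after the RefSeq start site (GRCm38.p6), 5′ to 3′ on the minus strand. Inmt is chr6:55174941-55175240, Gnmt chr17:46729116-46729415 and Ahcy chr2:155074448-155074747. Capitals mark TATAAA on either strand and CCAAT, which reads as ATTGG on the opposite strand.
Inmt: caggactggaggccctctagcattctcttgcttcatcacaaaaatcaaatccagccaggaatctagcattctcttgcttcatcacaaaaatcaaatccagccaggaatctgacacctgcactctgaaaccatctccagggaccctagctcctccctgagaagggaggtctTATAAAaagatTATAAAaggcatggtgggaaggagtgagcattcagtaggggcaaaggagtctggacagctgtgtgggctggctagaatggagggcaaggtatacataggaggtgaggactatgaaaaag
Gnmt: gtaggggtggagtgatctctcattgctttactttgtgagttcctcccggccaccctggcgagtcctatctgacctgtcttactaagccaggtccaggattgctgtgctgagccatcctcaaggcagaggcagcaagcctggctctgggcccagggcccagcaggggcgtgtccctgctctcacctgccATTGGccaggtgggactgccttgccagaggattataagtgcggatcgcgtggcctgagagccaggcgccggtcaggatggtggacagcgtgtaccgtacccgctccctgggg
Ahcy: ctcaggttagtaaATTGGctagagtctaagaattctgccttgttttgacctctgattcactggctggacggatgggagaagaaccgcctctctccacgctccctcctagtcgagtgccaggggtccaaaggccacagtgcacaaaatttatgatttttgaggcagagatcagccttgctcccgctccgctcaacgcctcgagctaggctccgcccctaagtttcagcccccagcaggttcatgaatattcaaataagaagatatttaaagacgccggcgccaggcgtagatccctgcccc
The Inmt promoter held TATAAA at 80 and again at 69 bases before the start site, letters found in 13.6% of 32851 mouse promoters of this length. The Gnmt promoter held CCAAT on the opposite strand from 62 bases before its start site, and Ahcy held it from 237 bases before, letters found in 37.4% of promoters. CACGTG (7.15% of promoters), TTCNNNGAA (8.3%), TTGCNNAA (10.8%) and CAAAGTCCA (0.475%), each searched on both strands, were in none of these 3 windows. Distances are from the RefSeq start site, which for Inmt lies inside the gene bounds given above, so another start would shift them. These matches describe the letters of the windows and were not tied to any change in level.

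Levels were compared between genes only per kilobase of exon, as FPKM computed from the counts and the union of exons of a gene, and all other levels are CPM, counts scaled to the size of the library. In Adult liver Gnmt stood highest, at 2240 ± 288 FPKM (SD, n = 5), above Mat1a at 1423 ± 187 FPKM. Next came Inmt at 477 ± 46.0 FPKM, and then Cth at 243 ± 36.3 FPKM. The ranges of these 4 neighbours did not overlap. Bhmt (203 ± 66.5 FPKM), Pemt (161 ± 11.1 FPKM), Ahcy (137 ± 14.0 FPKM), Cbs (132 ± 14.2 FPKM) and Nnmt (104 ± 24.4 FPKM) followed, each with a range that overlapped that of the gene above it.

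**Figure D1:**
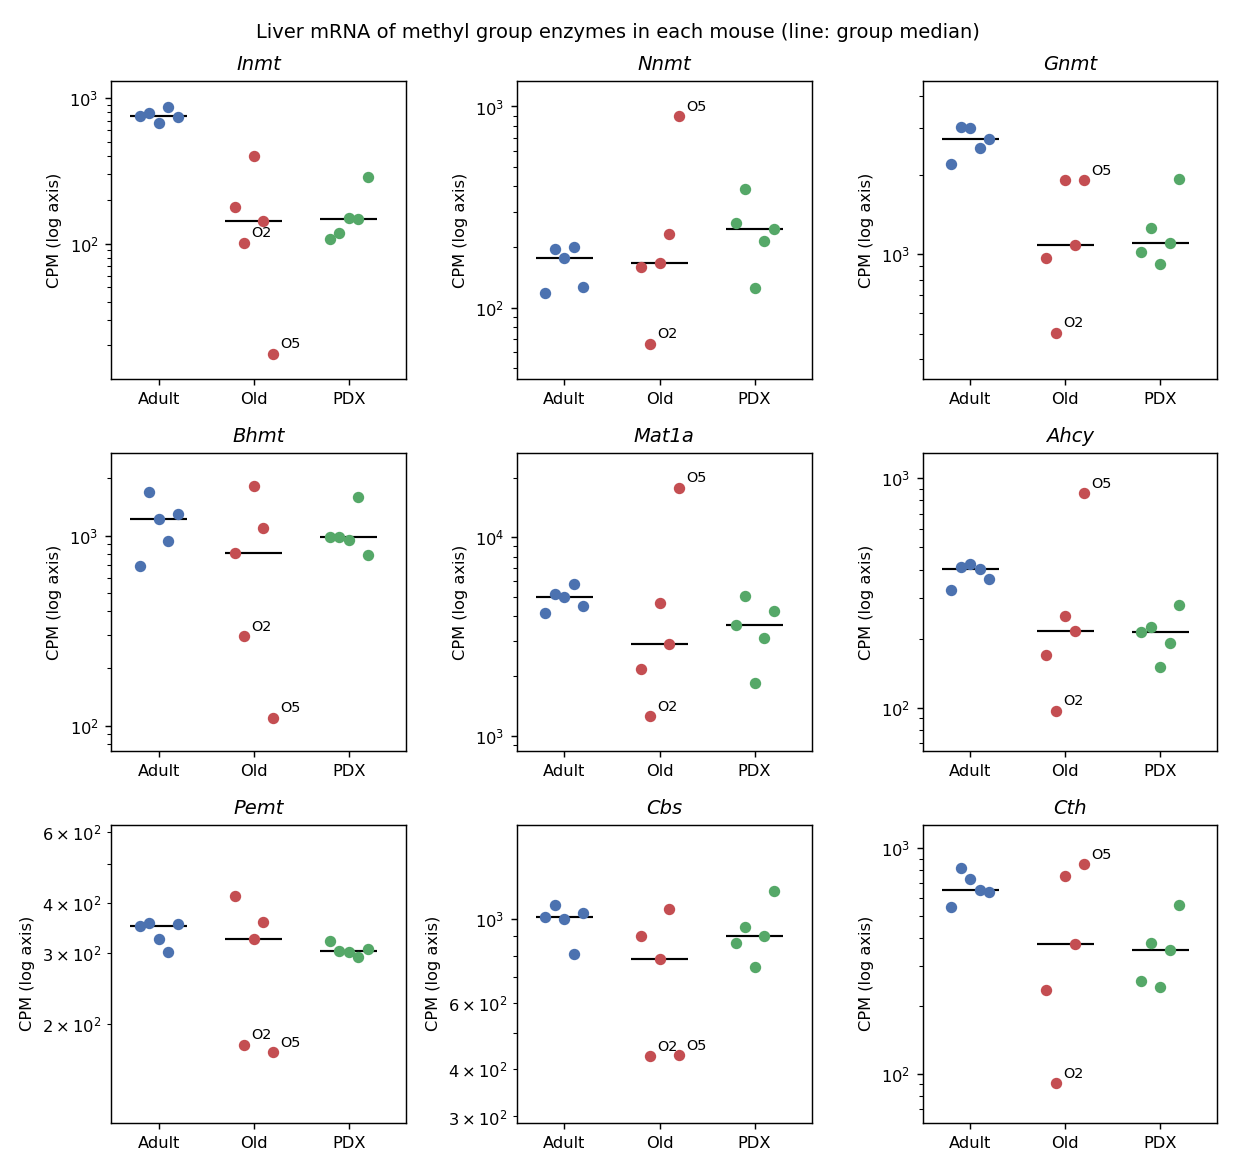
CPM of each gene in each mouse (log axis, a separate scale for each gene), with 1 point per mouse, a line at the group median, and the Old mice O2 and O5 marked. Inmt and Gnmt lay below all Adult mice in every Old and PDX mouse, and Nnmt, Mat1a and Ahcy were highest in O5.

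Libraries O2 and O5 stood apart from the other Old libraries. The correlation of log2 CPM between Old mice fell as low as 0.836, against 0.979 or more within Adult and 0.969 or more within PDX. Of all genes tested, 36.5% lay above and 35.3% below the Adult range in O2, and 39.1% above and 39.4% below in O5, while in the other Old and PDX mice between 23.8% and 31.5% lay below. The labels give O5 a frailty index of 0.56, a body weight change of -3.55% and 4 positive frailty criteria. For O2 they give an index of 0.11, a change of 3.07% and 3 criteria. Criteria were also 3 in O3 and P4 and 4 in O4 and P5. The authors describe body weight change as a weekly average in percent. The part of these traits in the liver values was not tested. Values that rest on these 2 mice are therefore given with and without them. Marker genes of hepatocytes (Alb, Ttr, Apoa1, Apob, Serpina1c and Hnf4a) were detected at high counts in every mouse, with at least 13566 counts each. Their summed level was 121601 to 127821 CPM in Adult, 98541 to 158739 CPM in PDX and 47869 (O5) to 178080 CPM in Old.

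Inmt, an N-methyltransferase that acts on amines such as tryptamine and on thioethers, differed most from Adult of the 9 genes, in both Old and PDX. Its level was 751, 785, 671, 872 and 736 CPM in A1 to A5, 178, 102, 402, 143 and 17.5 CPM in O1 to O5, and 107, 117, 149.5, 147 and 286 CPM in P1 to P5. Every Old and every PDX mouse was below every Adult mouse, and the Old and PDX values overlapped. Depth was ample, since the lowest library (O5) still held 486 counts of Inmt. Between Old and Adult the fitted log2 fold change was -2.18 (SE 0.54), a 4.53-fold lower level, and it was -1.65 without O2 and O5 and -2.80 without O3. In the comparison of PDX with Adult, which shares the Adult mice with that contrast, Inmt was 4.73-fold lower (log2 fold change -2.24, SE 0.54, 95% confidence interval -3.40 to -1.09, adjusted p = 0.0390 by edgeR's quasi-likelihood test). The size of this difference moved little (-2.13 to -2.55 over all alternatives), but the call was narrow. It was lost without any one of the Adult mice (adjusted p 0.0755 to 0.0870), without P1, P2, P3 or P4 (0.0934 to 0.110) and, barely, without O4 (0.05001). It was kept without O2 and O5 (adjusted p = 0.000364).

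Within the aged mice no difference of Inmt between PDX and Old was detected. The Old mean was 168 ± 144 CPM and the PDX mean 161 ± 72.2 CPM (SD, n = 5 each). On the log2 scale PDX minus Old was -0.06 (95% confidence interval -1.16 to 1.04, adjusted p = 0.981 by edgeR), an interval that spans a more than 2-fold change in either direction. It was -0.57 without O2 and O5 (adjusted p = 0.672). Inmt varied 22.9-fold between the lowest and highest Old mouse, 2.68-fold among PDX and 1.30-fold among Adult mice.

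Nnmt, which methylates nicotinamide, did not share the lower level of Inmt. Its level was 118, 195, 177, 199 and 126 CPM in A1 to A5, 160.0, 66.0, 166, 233 and 892 CPM in O1 to O5, and 264, 389, 125, 215 and 247 CPM in P1 to P5. The groups overlapped, with O5 far above and O2 below all other mice, and 4 of 5 PDX mice above the Adult range. From Adult to Old the log2 fold change was 0.89 (SE 0.53), and without O5 it was -0.064. From Adult to PDX it was 0.60 (SE 0.52, 95% confidence interval -0.51 to 1.72, adjusted p = 0.552), and between PDX and Old -0.29 (adjusted p = 0.889), neither past the threshold, and the latter was 0.42 without O2 and O5. As a ratio of FPKM, Nnmt to Inmt was 0.160 to 0.268 in Adult, 0.846 to 3.36 in PDX and 0.420 to 51.7 in Old, where the top value was that of O5. No Old or PDX ratio was as low as the highest Adult ratio. Inmt alone already separated these mice while Nnmt overlapped, so the ratio is not a separate result.

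Gnmt was lower in every Old and every PDX mouse than in every Adult mouse. Its level was 2203, 3026, 3014, 2530.5 and 2734 CPM in A1 to A5, 969.7, 503, 1913, 1083 and 1906 CPM in O1 to O5, and 1024, 1252, 916, 1102 and 1937 CPM in P1 to P5. The Old and PDX ranges overlapped, with O3, O5 and P5 at the top of each, and the lowest Old mouse (O2) was below every PDX mouse. The fitted log2 fold change was -1.08 (SE 0.32) between Old and Adult and -1.12 (SE 0.32, 95% confidence interval -1.80 to -0.44) between PDX and Adult, a 2.17-fold lower level with an adjusted p of 0.0753. That is past 0.05 only under other choices: adjusted p was 0.0101 by DESeq2, 0.00152 in a fit of the PDX and Adult mice alone, 0.00333 without O2 and O5, 0.0114 without O2, 0.0295 without O5 and 0.0393 without P5. No difference between PDX and Old was detected (log2 fold change -0.03, 95% confidence interval -0.71 to 0.64, adjusted p = 0.984).

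Pemt, which makes phosphatidylcholine from phosphatidylethanolamine by 3 successive methylations, kept the narrowest range of the 9 genes in PDX. It measured 351, 358, 327, 303 and 355 CPM in A1 to A5, 418, 178, 326, 359.9 and 171 CPM in O1 to O5, and 322, 304, 302, 293 and 309 CPM in P1 to P5. Only O2 and O5 were far from the rest. In PDX its coefficient of variation was 3.49%, the smallest of the 27 sets of gene and group, against 38.2% in Old. Its log2 fold change was -0.22 (SE 0.22) between Old and Adult, -0.15 (SE 0.22, adjusted p = 0.757) between PDX and Adult and 0.08 (adjusted p = 0.930) between PDX and Old. Once O2 and O5 were left out, Pemt on the log2 scale was 0.13 above Adult in Old, and PDX minus Old was -0.26. Gnmt to Pemt as a ratio of FPKM was 10.9 to 16.1 in Adult, 4.05 to 19.5 in Old and 5.30 to 11.0 in PDX.

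Mat1a, which encodes the liver form of methionine adenosyltransferase, was set apart by 1 mouse. Its level was 4135, 5191, 5024, 5819 and 4508 CPM in A1 to A5, 2156, 1252, 4663, 2904 and 17784 CPM in O1 to O5, and 3607, 5056, 1832, 3123 and 4226 CPM in P1 to P5. O5 stood above every other mouse, O1, O2 and O4 were below the Adult range, and so were P1, P3 and P4. The mean of Old was therefore above Adult (log2 fold change 0.22, SE 0.55) with O5 and below it without O5 (-0.85). Against Adult, PDX had a log2 fold change of -0.47 (SE 0.55, 95% confidence interval -1.64 to 0.71, adjusted p = 0.682). Between PDX and Old it was -0.69 (adjusted p = 0.803), and 0.38 without O5.

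Ahcy, the enzyme that hydrolyses S-adenosylhomocysteine, was lower than Adult in all PDX mice and in 4 of 5 Old mice. Its level was 326, 411, 421, 401 and 365 CPM in A1 to A5, 170.1, 97.2, 252, 216 and 860.1 CPM in O1 to O5, and 213, 224, 149.9, 192 and 279.6 CPM in P1 to P5. The exception was O5, at 224% of the Adult mean. Old against Adult gave a log2 fold change of -0.27 (SE 0.43), and of -1.07 without O5. PDX against Adult gave -0.86 (SE 0.43, 95% confidence interval -1.78 to 0.06, adjusted p = 0.271) and did not pass the threshold in the fit of all 15 mice. It did pass by edgeR in a fit of the PDX and Adult mice alone (adjusted p = 0.00151), without O2 and O5 (0.00192), and without only O5 (0.0264). PDX against Old gave -0.59 (adjusted p = 0.793) and 0.21 without O5, the sign turning with that mouse.

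Bhmt, which carries the methyl group of betaine to homocysteine, showed no difference between groups that passed the test. Its level was 687, 1701, 1223, 941 and 1298 CPM in A1 to A5, 812, 295, 1816, 1089 and 110.1 CPM in O1 to O5, and 979.5, 978, 951, 1602 and 793 CPM in P1 to P5. All 5 PDX mice lay within the Adult range, and O5 held 9.41% of the Adult mean. Its difference between Old and Adult was -0.50 on the log2 scale (SE 0.52), and 0.094 without O2 and O5. For PDX against Adult it was -0.14 (SE 0.52, adjusted p = 0.914), and between PDX and Old 0.36 (adjusted p = 0.867), which became -0.22 without O2 and O5. In O5 the ratio of Ahcy to Bhmt, as FPKM, was 16.0, while no other mouse of any group exceeded 0.972.

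Cbs and Cth are the first and second enzymes of transsulfuration, and the mice below the Adult range were not the same for each. Cbs measured 1012, 1089, 1000.2, 808 and 1035 CPM in A1 to A5, 903, 433, 781, 1064 and 436 CPM in O1 to O5, and 863, 953, 746, 901 and 1184 CPM in P1 to P5. O2 and O5 were the lowest of the 15 mice. The log2 fold change of Cbs was -0.45 (SE 0.24) between Old and Adult and 0.36 (adjusted p = 0.793) between PDX and Old, and without O2 and O5 these were -0.099 and 0.028. PDX against Adult gave -0.09 (SE 0.24, adjusted p = 0.880). Cth measured 547, 816, 730.2, 653 and 640.4 CPM in A1 to A5, 234, 90.9, 749.6, 377 and 848 CPM in O1 to O5, and 257, 378, 242, 353 and 561 CPM in P1 to P5. O1, O2, O4 and P1 to P4 were below the Adult range, O3 and P5 within it, and O5 above. Cth differed by -0.56 on the log2 scale (SE 0.44) between Old and Adult. Its PDX against Adult value was -0.92 (SE 0.45, 95% confidence interval -1.87 to 0.03, adjusted p = 0.256), but the adjusted p was 0.00722 in a fit of the PDX and Adult mice alone and 0.0321 without O2 and O5. Between PDX and Old it was -0.36 (adjusted p = 0.851), -0.33 without O2 and O5, -0.62 without O2 and -0.018 without O5. The ratio of Cth to Cbs, as FPKM, was 1.45 to 2.17 in Adult, 0.799 to 1.27 in PDX and 0.564 to 5.22 in Old. The Adult and PDX ratios did not overlap, although Cth and Cbs each did. How often ratios of other genes separate these groups was not computed, so this is a description.

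**Figure D2:**
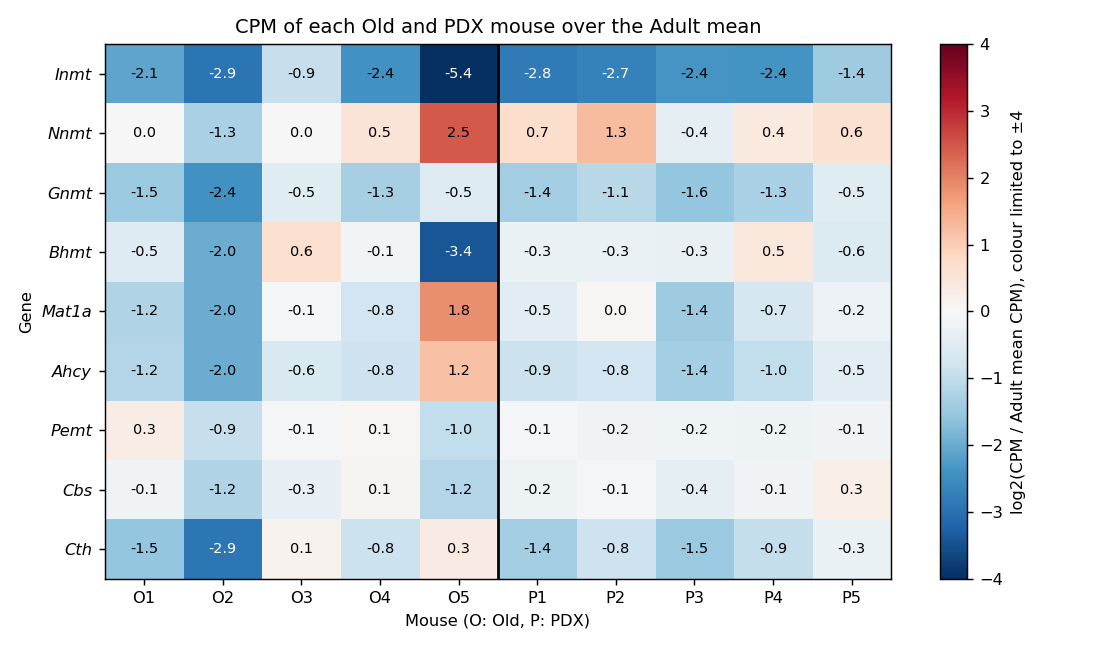
Log2 of the CPM of each Old and PDX mouse over the Adult mean CPM, for each gene (blue lower, red higher, number printed in each cell, colour limited to 4 in either direction). O2 was blue in every row, while O5 was red for Nnmt, Mat1a, Ahcy and Cth and blue for the other 5 genes.

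Read by mouse, O2 and O5 departed from the Adult range in different ways. O2 was below the Adult range for all 9 genes, from 13.3% of the Adult mean for Inmt and 13.4% for Cth to 52.5% for Pemt. O5 was outside the range for all 9 genes as well, but in both directions. It was at 547% of the Adult mean for Nnmt, 360% for Mat1a, 224% for Ahcy and 125% for Cth, and at 2.30% for Inmt, 9.41% for Bhmt, 44.1% for Cbs, 50.4% for Pemt and 70.5% for Gnmt. The other Old mice were below the range for 4 or 5 genes, and the PDX mice for 3 (P5) to 7 (P3). Beside these counts, 23.8% (P5) to 31.5% (O1) of all genes tested lay below the range in the same mice. In O2 35.3% of all genes lay below it, and in O5 39.4% below and 39.1% above. Only O2 and O5 had none of the 9 genes within the Adult range.

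Counted over the 9 genes, 1 was called between PDX and Adult at an adjusted p of 0.05 (Inmt, lower). Of all genes 2.66% were called and 0.898% called lower. This comparison shares the Adult mice with the one in which Inmt was known, so its counts are a description too. For PDX and Adult 3 of 9 (Inmt, Gnmt and Ahcy) had groups that did not overlap, against 19.9% of all genes. Without O2 and O5 the same contrast called 4 of 9 (Ahcy, Cth, Gnmt and Inmt, all lower) against a background of 24.6%. A fit of the PDX and Adult mice alone called the same 4 against 29.6%. Between Old and Adult, where Inmt was known when the genes were chosen and nothing is read from the counts, 1 of 9 (Inmt) was called beside 6.78% of all genes, with 2.07% called lower, and 2 of 9 (Inmt and Gnmt) did not overlap beside 8.13%. Fitted without O2 and O5, that contrast, again a description, called Ahcy, Gnmt and Inmt beside 7.12%. Between PDX and Old 0 of 9 were called at an adjusted p of 0.25, as were 0% of all genes by edgeR, DESeq2 and limma. By edgeR 834 of 15808 genes had an unadjusted p under 0.05 in the main fit, close to the share of 0.05 that chance alone gives. That count moved with the fit. It was 1470 of 16275 genes without O2 and O5, 1904 of 16116 without O1, and 393 of 15423 with PDX and Old alone. In that comparison 0 of 9 had groups without overlap, against 0.342% of all genes. The median log2 fold change of the 9 genes was -0.45 between Old and Adult, -0.47 between PDX and Adult and -0.06 between PDX and Old, beside medians of all genes of 0.07, -0.01 and -0.07.

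**Figure D3:**
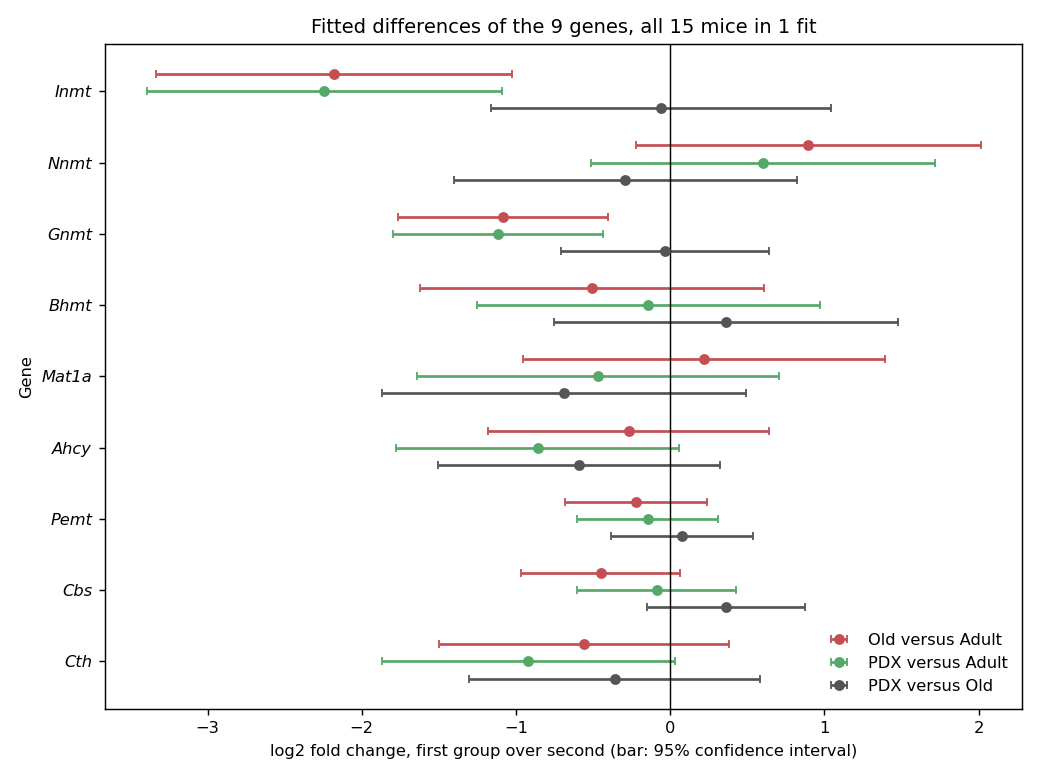
Fitted log2 fold changes of the 9 genes in the 3 comparisons (point) with 95% confidence intervals (bar), all 15 mice in 1 fit, 0 meaning no difference. The intervals of Inmt and Gnmt against Adult lie below 0, and every interval between PDX and Old includes 0.

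The other genes of these pathways were read from 6 lists of 88 genes, of which 85 were tested. The lists were chosen with earlier results of these data known, so their shares beside those of all genes are a description. Between Old and Adult 3 rose and 8 fell, 12.9% of those tested against 6.78% of all genes, and between PDX and Adult 0 rose and 2 fell, 2.35% against 2.66%. None was called between PDX and Old. The median log2 fold change over the 85 genes was -0.28, -0.23 and 0.08 in these comparisons. The counts depended on the fit, and limma called 0 higher and 8 lower between Old and Adult. Without O2 and O5 9 genes were called between Old and Adult (3 up, 6 down) and 33 between PDX and Adult (5 up, 28 down), and a fit of the Old and Adult mice alone called only Mettl7a1. Leaving out each mouse in turn gave 2 to 24 calls between Old and Adult, fewest without A2, A3 or A5 and most without O3, and 0 to 12 between PDX and Adult, most without O5.

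Among the other small-molecule methyltransferases, 1 of 12 tested fell in either comparison with Adult. It was Mettl7a1, a membrane-bound methyltransferase of the endoplasmic reticulum and lipid droplets that has close paralogs in the mouse genome. It measured 348, 324, 342, 352 and 315 CPM in A1 to A5, 162, 141, 209.6, 174 and 88.7 CPM in O1 to O5, and 155, 171, 250.1, 191 and 204 CPM in P1 to P5. Every aged mouse was below every Adult mouse. It fell, with a log2 fold change of -1.12 (SE 0.20, adjusted p = 0.00936) between Old and Adult, a call kept without each mouse in turn. For PDX against Adult it was -0.79 (SE 0.19, adjusted p = 0.0426), and this call was lost without any one Adult mouse, O4, P1, P2, P4 or P5 (adjusted p up to 0.117).

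In the list of cysteine, taurine, glutathione and sulfide genes, 0 of 12 rose and 3 fell between Old and Adult, and 1 fell between PDX and Adult. Gclc, the catalytic subunit of the enzyme that starts glutathione synthesis from cysteine, measured 373, 251, 302, 219 and 342 CPM in A1 to A5, 175, 162, 159, 193 and 85.2 CPM in O1 to O5, and 119.7, 116, 165, 129.6 and 192 CPM in P1 to P5. No aged mouse reached the Adult range. Its log2 fold change was -0.94 (SE 0.22, adjusted p = 0.0281) between Old and Adult and -1.04 (SE 0.22, adjusted p = 0.0223) between PDX and Adult. The first call was lost without A1, A2, A3 or A5 (adjusted p up to 0.0737), the second without A1, A3, A5, P1, P2 or P4 (up to 0.0728). Ethe1, a mitochondrial dioxygenase of sulfide breakdown, and Suox, which oxidises sulfite, fell between Old and Adult, with log2 fold changes of -1.49 (SE 0.36, adjusted p = 0.0293) and -1.34 (SE 0.37, adjusted p = 0.0459). The call of Ethe1 was lost without A2, A3, A5 or O2 (adjusted p up to 0.0785), and that of Suox without any one Adult or PDX mouse or O2 (up to 0.105). Their log2 fold changes between PDX and Adult were -1.16 (adjusted p = 0.0946) and -1.08 (adjusted p = 0.125). Leaving out both O2 and O5 also lost the call of Ethe1 between Old and Adult, but not that of Suox.

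Of 25 methionine and folate cycle partners, 1 rose and 1 fell between Old and Adult and none was called between PDX and Adult. Mthfd2, a mitochondrial folate enzyme with a low level in adult liver, rose by 1.99 on the log2 scale (SE 0.49, adjusted p = 0.0297), from 0.768 to 1.52 CPM in Adult to 1.62 to 13.7 CPM in Old. The highest value was that of O2, and without O2 the log2 fold change was 1.06. Every PDX mouse (2.27 to 2.89 CPM) was also above every Adult mouse (log2 fold change 1.13, adjusted p = 0.197). Aldh1l1, which oxidises formyl-tetrahydrofolate in the cytosol, fell by 1.13 on the log2 scale (SE 0.29, adjusted p = 0.0339). The call of Mthfd2 was lost without any one Adult mouse (adjusted p up to 0.0787) and by limma. That of Aldh1l1 was lost without any one Adult mouse, O1 or O2 (up to 0.0840), and without both O2 and O5.

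Among 14 polyamine and methionine salvage genes, Srm, the spermidine synthase, rose between Old and Adult (log2 fold change 1.05, SE 0.28, adjusted p = 0.0388) and Oaz1, which holds polyamine levels down, fell (-0.50, SE 0.13, adjusted p = 0.0322). In the list of 13 genes of phosphatidylcholine and phosphatidylethanolamine synthesis, Ptdss1, a phosphatidylserine synthase, fell (-0.61, SE 0.12, adjusted p = 0.0153), as did Chpt1, a cholinephosphotransferase (-0.79, SE 0.21, adjusted p = 0.0378). Pcyt1b, a form of the rate-limiting enzyme of phosphatidylcholine synthesis from choline, rose (2.26, SE 0.62, adjusted p = 0.0437) from 0.112 to 0.352 CPM in Adult to 0.334 to 3.01 CPM in Old, levels at which few reads decide the value, and without O2 the log2 fold change was 1.40. The call of Ptdss1 was kept without each mouse in turn. The other calls were lost without A1, A2, A3 or A5 in each case, and also without O2 for Oaz1, without A4, O1 and P2 to P5 for Srm, without A4, O1, O2 and P2 to P4 for Chpt1, and without A4, O2 and P2 to P5 for Pcyt1b, with adjusted p up to 0.118. Leaving out both O2 and O5 lost the calls of Oaz1, Chpt1 and Pcyt1b, but not those of Ptdss1 and Srm. By limma the calls of Srm, Oaz1 and Pcyt1b were lost, and those of Ptdss1 and Chpt1 were kept. None of these 5 genes was called between PDX and Adult. Of 9 nicotinamide genes tested, 0 were called in any comparison, with a median log2 fold change of -0.30 between Old and Adult and -0.07 between PDX and Adult.

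**Figure D4:**
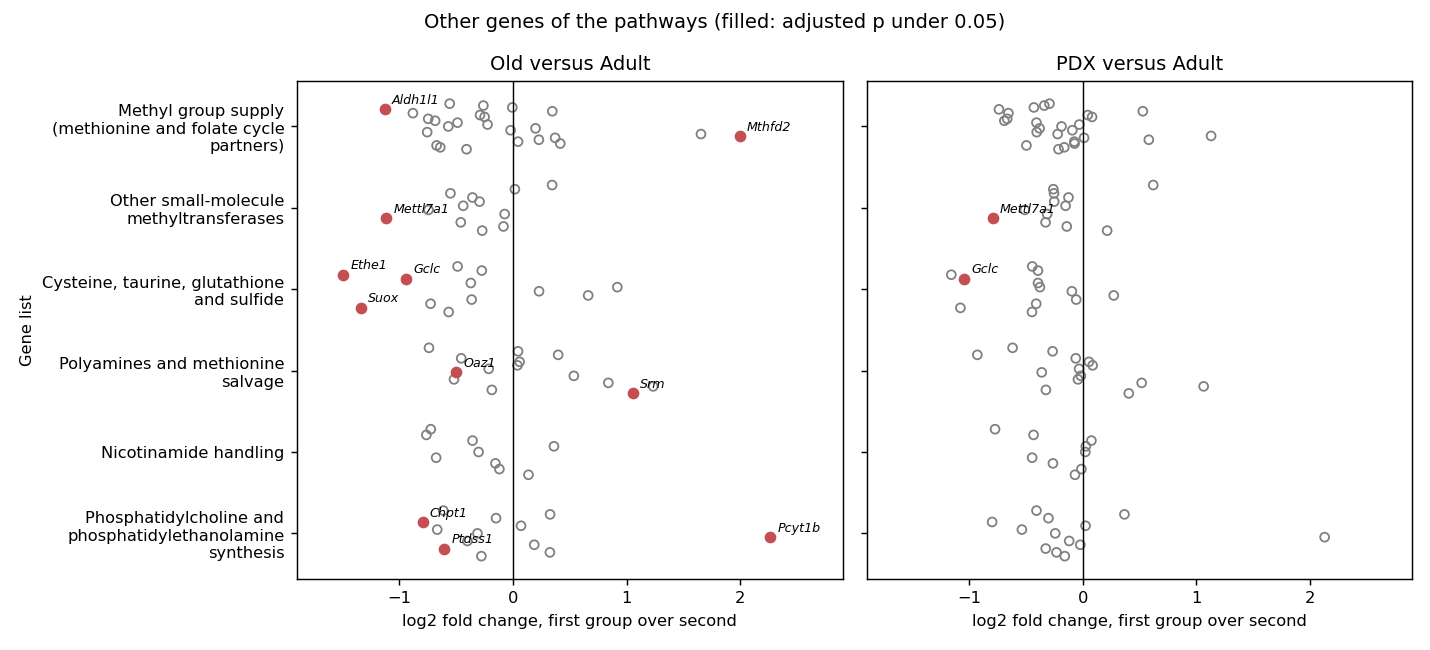
Fitted log2 fold changes of the 85 other pathway genes between Old and Adult (left) and between PDX and Adult (right), 1 circle per gene in rows by list, filled and named where the adjusted p was under 0.05. Between Old and Adult 11 circles are filled, 8 of them left of 0, and between PDX and Adult 2 are filled, Gclc and Mettl7a1.

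Of 7 markers of pericentral hepatocytes, the cells around the central vein, Oat, Cyp2e1 and Cyp1a2 fell in both comparisons with Adult, and 0 rose. That is 3 of 7 beside 2.07% of all genes called lower between Old and Adult, and 0.898% between PDX and Adult. The marker lists were chosen with earlier results of these data known, so this and the later shares are a description. The log2 fold changes of Oat, Cyp2e1 and Cyp1a2 were -1.18, -1.50 and -2.08 between Old and Adult, and -1.71, -1.60 and -1.99 between PDX and Adult. The other 4 (Glul, Slc1a2, Lhpp and Rgn) did not pass the test, with values from -1.15 (Rgn) to -0.48 (Slc1a2) between Old and Adult, and from -1.02 (Rgn) to -0.18 (Glul) between PDX and Adult. The summed level of the 7, in which Cyp2e1 held the highest counts, was 11530 to 14032 CPM in Adult, 3094 to 8175 CPM in Old and 4117 to 6100 CPM in PDX, with no overlap of the aged mice with Adult. None of the 7 was near 0, with at least 695 counts in every mouse. Of 7 markers of periportal hepatocytes, at the opposite end of the lobule, 1 fell between Old and Adult and 0 were called between PDX and Adult. Against shares of all genes called of 6.78% and 2.66%, markers of neutrophils and their precursors rose in 6 of 6 genes between Old and Adult, and in 3 of 6 between PDX and Adult, from a summed level of 2.33 to 5.89 CPM in Adult to 18.5 to 279 CPM in Old and 41.4 to 174 CPM in PDX. Markers of B cells rose in 3 of 5 genes and those of stellate cells in 1 of 8 between Old and Adult, and no marker of Kupffer cells, sinusoidal endothelium, cholangiocytes or T cells was called. The summed levels of Kupffer cell markers were nevertheless above all Adult mice (412 to 643 CPM) in every PDX mouse (714 to 1598 CPM), and ran from 323 to 4073 CPM in Old. Those of B cell markers were 5.19 to 9.05 CPM in Adult, 8.29 to 131 CPM in Old and 14.8 to 53.0 CPM in PDX. The part of these cell types in the levels of the 9 genes was not tested, and in bulk liver fewer cells of a type and less RNA per cell cannot be told apart.

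The genes whose log2 CPM followed Inmt most closely over the 15 mice were Dsg2 (Pearson's r = 0.981), Ugt2a3 (0.979), Rdh16 (0.9748), Cyp1a2 (0.974) and Acaa1b (0.972), of 12023 genes whose mean log2 CPM reached 1. Without O2 and O5 the r of these 5 genes with Inmt ranged from 0.953 (Cyp1a2) to 0.980 (Ugt2a3). The points share the group differences and the spread of the Old mice, so r is a description. Dsg2 is a desmosomal cadherin, Ugt2a3 a glucuronosyltransferase, Rdh16 a retinol dehydrogenase, Cyp1a2 a cytochrome P450 of drug metabolism and a marker of pericentral hepatocytes, and Acaa1b a thiolase of peroxisomal fatty acid oxidation. Acaa1b was 1056 to 1483 CPM in Adult, 8.12 to 541 CPM in Old and 145 to 474 CPM in PDX, with O5 lowest as for Inmt. Cyp1a2 was 917 to 1198 CPM in Adult, 25.1 to 431 CPM in Old and 213 to 305 CPM in PDX, again lowest in O5.

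The genes closest to Nnmt were Hspb8 (r = 0.942), a small heat shock protein, Nrbp2 (0.922), Nsun2 (0.908), an RNA cytosine methyltransferase, Kng1 (0.904), the kininogen precursor, and Mt1 (0.903), a metallothionein. All 5 were lowest in O2 and highest in O5 among the Old mice. Without O2 and O5 their r with Nnmt ranged from 0.652 (Kng1) to 0.894 (Mt1). Mt1 measured 97.0 to 251 CPM in Adult, 132 to 1332 CPM in Old and 144 to 801 CPM in PDX.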

How the data were processed

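Liver mRNA was sequenced from 15 mice in 3 groups of 5 and grouped by the sample labels. The authors aligned reads with STAR (version 2.6.0c) to mm10 and deposited counts of read pairs per gene, not normalized, made with featureCounts (Subread 1.6.2) on Ensembl 100; only uniquely placed proper pairs in sense orientation were used and mitochondrial genes were left out. The authors also deposited variance-stabilized values on a log2 scale, made with DESeq2 (version 1.23.10), used here as an alternative. Gene lists and members were chosen with earlier results of these data known.

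Symbols and coordinates were taken from GENCODE M21 (GRCm38) and matched 55104 of 55450 gene IDs. Genes had to pass edgeR's filterByExpr (at least 10 counts, and 15 in total). Counts were scaled with TMM factors and fitted with edgeR's quasi-likelihood model (version 4.0.16) in R 4.3.3, all 15 mice in 1 fit, with Benjamini-Hochberg adjustment over 15808 genes. The threshold was an adjusted p of 0.05, and 0.25 between PDX and Old. The 3 comparisons share groups and are not independent of each other. CPM of single genes used TMM library sizes, log2 CPM a prior count of 2, and FPKM the union of exons of a gene. Summed levels of marker genes were divided by the raw library size, without TMM factors. Median depth was 29648247 read pairs in Adult, 26607323 in Old and 28692112 in PDX, and the lowest count of a member was 486.

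The results were recomputed with DESeq2's Wald test (version 1.42.0), RLE factors, no filter, fits of the 2 groups compared, fits without O2 and O5 and without each mouse, limma (version 3.58.1) on the log2-scale values, and a replicate block. Only the calls of edgeR, DESeq2 and limma between PDX and Adult were tested on simulated data, which held no outlying mice. Beside the 9 members, the text names the 3 largest changes of each pathway list past the threshold and the 5 genes most like Inmt and Nnmt by Pearson correlation. RefSeq promoters (GRCm38.p6) matched 6 of 9 members. Of 7 hepatocyte markers 6 matched a gene ID. Euthanasia took place in batches, whose part was not tested, since the sources used here do not tie it to each mouse. Figures were drawn with matplotlib 3.10.9 in Python 3.11.15.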

Additional observations from a re-analysis of the deposited data

Results flagged for a closer look

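In 5 of 27 sets of 5 mice (9 genes in 3 groups) the highest mouse, in CPM, lay apart from the other 4 by more than Dixon's 95% critical value. Chance gives this in about 1 of 20 sets if values are normal and sets independent. The sets share mice, and normality of the CPM values was not tested, so the flags are a description. In the Old group the flagged values were all those of O5, for Nnmt (892 CPM), Mat1a (17784 CPM) and Ahcy (860.1 CPM). In the PDX group they were Inmt in P5 (286 CPM), the PDX mouse nearest to the Adult range for that gene, and Bhmt in P4 (1602 CPM), which lay inside the Adult range. The low value of Inmt in O5 (17.5 CPM) was not among them.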

How the results depend on the processing

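Inmt stayed below Adult in both groups under every alternative tried, while the number of genes called moved with the fit, the test and the filter. Between Old and Adult the members called (main count 1) were 2 by DESeq2 and by limma on the log2-scale values, 0 in the fit of those groups alone, 3 without O2 and O5, 0 with the replicate block, and 0 to 3 with 1 mouse left out (0 without any one Adult mouse or O2, 3 without O5). Between PDX and Adult (main count 1) they were 2 by DESeq2, 4 in the fit of those groups alone and without O2 and O5, 0 with the block, and 0 to 3 with 1 mouse left out (0 without any one Adult mouse, O4 or P1 to P4, 3 without O5). Pathway genes called between Old and Adult (11) were 20 by DESeq2, 6 with no filter, 1 in the fit of the groups alone and 1 with the block, and 2 to 24 with 1 mouse left out. Between PDX and Adult (2) they were 8, 1, 38 and 0 under the same choices, 33 without O2 and O5, and 0 to 12 with 1 mouse left out. Over all genes, calls between Old and Adult were 1072 in the main analysis, 2524 by DESeq2, 603 by limma, 665 with no filter, 105 in the groups alone and 237 with the block, and those between PDX and Adult 420, 1383, 374, 332, 4529 and 316. Why the counts differ was not tested beyond the fits without O2 and O5. Same-numbered mice are different animals and were not paired in the main fit. Their deviations correlated by -0.168 on average between Old and Adult, 0.031 between PDX and Adult and 0.092 between PDX and Old. For mice of unlike number these averages were 0.0435, -0.0078 and -0.0225. Whether the numbers carry a batch was not tested. With the replicate block Inmt was at -2.26 between PDX and Adult with an adjusted p of 0.0813 by edgeR. The sign of the log2 fold change turned in these cases. Without O2 and O5 it became 0.094 for Bhmt, -0.60 for Mat1a and 0.13 for Pemt between Old and Adult, and 0.42 for Nnmt, -0.22 for Bhmt, 0.14 for Mat1a, 0.0013 for Ahcy and -0.26 for Pemt between PDX and Old. With the block it became -0.26 for Mat1a between Old and Adult, and 0.12 for Inmt, 0.026 for Nnmt and 0.029 for Gnmt between PDX and Old. With limma on the log2-scale values it became -0.42 for Mat1a between Old and Adult, and 0.41 for Inmt, 0.17 for Nnmt and 0.070 for Gnmt between PDX and Old. With 1 mouse left out, the range included 0 between Old and Adult for Nnmt (-0.064 to 1.15) and Mat1a (-0.85 to 0.48), between PDX and Adult for Bhmt (-0.34 to 0.030), and between PDX and Old for Inmt (-0.37 to 0.55), Nnmt (-0.55 to 0.67), Gnmt (-0.25 to 0.16), Mat1a (-0.94 to 0.38), Ahcy (-0.82 to 0.21) and Pemt (-0.066 to 0.23). Every member had at least 486 counts in each mouse, so counting error was small beside the spread between mice.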
